A study of Mus musculus with 4 samples.

Results

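Of 21951 protein-coding mouse genes, 222 had a peak of transcription initiation at a start site in each of the 2 liver libraries but in none of the 2 yolk sac libraries. They are called liver-only genes here, and their liver promoter peaks are the regions described. These peaks numbered 231 of the 24863 peaks in the list of liver replicate 1 and 237 of the 24333 in that of replicate 2. The genes were chosen by the measured presence or absence of peaks in the same 4 lists, so their liver-only pattern is a description and was not tested. A promoter peak is one that overlaps the 500 bp on either side of any annotated transcript start of the gene (GENCODE vM21, GRCm38). The rule called 1.01% of all coding genes. The count was 660 when the 4 lists were shortened to the same number of highest-scoring peaks, and 67 of the 222 genes (30.2%) were also called with the higher-scoring 50% of each list. A further 11805 genes carried promoter peaks in every one of the 4 libraries, 1153 had the reverse, yolk-sac-only pattern, 1257 had another pattern and 7514 had no promoter peak in any library.

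The libraries were made by PRO-seq, which maps engaged RNA polymerases by extending their nascent RNA in a run-on reaction, here in isolated chromatin. There were 2 libraries of liver and 2 of yolk sac, all at stage E14.5. Each was made from the tissue of 6 pooled embryos, and no library represents a single animal. All embryos, of both tissues, came from the same kind of cross, with C57BL/6J mothers and fathers of mixed C57BL/6J and CAST/EiJ background selected for the CAST/EiJ allele of Dlk1/Gtl2, on chromosome 12. The deposited lists hold peaks with a position and a score, and no read counts, so the depth behind each peak is unknown. The yolk sac lists were longer, with 50525 and 43055 peaks. A longer list gives fewer chances for a gene to lack a yolk sac peak, and list length and tissue cannot be told apart in these 4 libraries. In whole tissue, fewer cells of a type and less RNA per cell cannot be told apart either.

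In the middle of gestation the liver is the main site where red cells and other blood cells are made, and its hepatoblasts begin to make the proteins of the blood plasma and the enzymes of intermediary metabolism. The yolk sac makes the earliest blood cells of the embryo, and its endoderm secretes many of the same plasma proteins as the liver. Active promoters and active enhancers both start short nascent transcripts in divergent directions, which is why run-on data can place both kinds of element. The tissue labels were checked against marker genes. Of 8 annotated erythroid markers, 8 had a promoter peak in each liver library and 2 in each yolk sac library. The 6 yolk sac endoderm markers had 4 and 1 in the liver libraries and 6 in each yolk sac library. Hepatocyte markers had promoter peaks for 6 of 8 genes in every library. Of the erythroid markers, 6 are themselves liver-only genes and 2 had a promoter peak in all 4 libraries. The whole erythroid difference thus lies in genes that the rule selected, and it is no independent check of the labels.

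The sequences around the starts of 8 liver-only genes are shown, 6 of them from red cells, the role group with the highest median score percentile, and 1 each for a neutrophil and a plasma protein. Platelet and metabolic genes are not among them. They come from RefSeq (GRCm38.p6) and run 5′ to 3′ on the strand of the gene, from 150 bases before the RefSeq start to 30 bases from it. Capitals mark 4 motifs found by a search of both strands, the GATA motif AGATAA, the KLF motif CCNCNCCC, the C/EBP motif TTGCNNAA and the TATA box TATAAA. Positions below give the first base of a match counted from the start. The first pair belongs to Alas2 (chrX:150547267-150547446, plus strand), the erythroid form of the enzyme that opens heme synthesis, and Hbb-bt (chr7:103813894-103814073, minus strand), an adult beta globin.
Alas2: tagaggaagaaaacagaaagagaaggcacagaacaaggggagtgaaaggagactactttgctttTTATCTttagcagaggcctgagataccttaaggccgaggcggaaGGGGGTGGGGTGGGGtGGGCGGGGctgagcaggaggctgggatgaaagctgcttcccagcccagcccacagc
Hbb-bt: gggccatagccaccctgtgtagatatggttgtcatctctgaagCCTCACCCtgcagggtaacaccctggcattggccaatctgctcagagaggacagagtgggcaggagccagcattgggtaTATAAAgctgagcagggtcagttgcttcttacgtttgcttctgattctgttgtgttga
Gata1 (chrX:7967881-7968060, minus strand) encodes the master transcription factor of red cells. Kel (chr6:41704296-41704475, minus strand) and Rhd (chr4:134864386-134864565, plus strand) encode blood group proteins of the red-cell membrane, and Ermap (chr4:119189966-119190145, minus strand) an erythroblast membrane protein of the immunoglobulin superfamily.
Gata1: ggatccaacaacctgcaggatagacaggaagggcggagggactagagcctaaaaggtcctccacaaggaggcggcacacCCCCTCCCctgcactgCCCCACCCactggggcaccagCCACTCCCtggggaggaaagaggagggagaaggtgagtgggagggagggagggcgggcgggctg
Kel: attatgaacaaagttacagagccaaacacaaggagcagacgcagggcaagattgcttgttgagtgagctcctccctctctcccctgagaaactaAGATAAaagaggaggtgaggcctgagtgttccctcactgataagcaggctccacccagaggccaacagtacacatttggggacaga
Rhd: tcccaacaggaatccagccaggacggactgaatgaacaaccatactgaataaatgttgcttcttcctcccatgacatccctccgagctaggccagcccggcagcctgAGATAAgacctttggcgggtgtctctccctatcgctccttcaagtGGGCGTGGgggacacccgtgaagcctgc
Ermap: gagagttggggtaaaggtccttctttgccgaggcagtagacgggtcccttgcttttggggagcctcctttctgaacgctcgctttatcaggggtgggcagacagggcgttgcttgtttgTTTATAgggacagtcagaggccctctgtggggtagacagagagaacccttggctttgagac
S100a8 (chr3:90668921-90669100, plus strand) encodes a subunit of calprotectin, a protein of neutrophils, and C3 (chr17:57228107-57228286, minus strand) the central component of complement.
S100a8: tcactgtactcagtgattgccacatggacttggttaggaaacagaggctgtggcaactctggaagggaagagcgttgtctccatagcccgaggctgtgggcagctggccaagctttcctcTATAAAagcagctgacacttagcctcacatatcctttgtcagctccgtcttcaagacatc
C3: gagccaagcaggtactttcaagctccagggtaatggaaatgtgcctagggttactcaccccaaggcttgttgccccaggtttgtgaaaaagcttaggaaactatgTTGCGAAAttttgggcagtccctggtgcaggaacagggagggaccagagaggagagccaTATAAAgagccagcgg

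The motif letters differed among these 8 windows, each of which held at least 1 of the 4 motifs. Other listed members, among them Rhag, Trim58, Klf1, F5, F12, Mbl1 and Gp1ba, held none of the 4 in their 300 RefSeq bases. The 8 windows therefore do not stand for the whole set. The GATA letters occurred in Alas2 at position -86, in Kel at -56 and in Rhd at -43. The KLF letters occurred in Alas2 at -42, -40 and -35, where the matches overlap, and separately at -26. They also occurred in Gata1 at -71, -55 and -34, in Hbb-bt at -107 and in Rhd at 2. A TATA box lay at -28 in Hbb-bt and at -30 in S100a8, while the match in C3 lay past the start, at 14. In Ermap the TATA letters lay at -31 but on the opposite strand. The C/EBP letters occurred in C3 at -45. Among all 32851 promoters of the RefSeq table, each 300 bases long, 11.2% held the GATA letters, 49.5% the KLF letters, 10.8% the C/EBP letters and 13.6% the TATA box. A match is a description of the letters and not of a bound factor. Of the 222 genes, 167 had an entry in that table, and for 148 (66.7%) the entry lay at the liver peak. Since this is below the 80% needed, a check of motifs or base composition over the whole set is void and none is given.

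The scores of the promoter peaks are the authors' and have no unit, so each was ranked among the coding promoter peaks of its own list, 12226 in liver replicate 1 and 12675 in replicate 2. The resulting score percentile runs from the lowest promoter peak to 100 for the highest. Liver-only genes had mostly low-ranking peaks. Their median percentile was 21.1 in replicate 1 and 21.6 in replicate 2, with a range of 0.401 to 98.4 and of 0.0868 to 98.4. Below the 25th percentile stood 118 genes (53.2%) in replicate 1 and 119 (53.6%) in replicate 2, and above the 75th stood 36 (16.2%) and 35 (15.8%). Their peaks were also narrower, with a median width of 1002 and 852 bp, against 1602 and 1402 bp for all promoter peaks. The 2 liver replicates ranked the genes in a similar but not identical order, with Pearson's r = 0.68 and Spearman's rho = 0.66 across the 222 genes, which share the same 2 libraries. With the higher-scoring 50% of each list, 289 genes met the rule, and ranks were taken within the shortened lists. The median percentile was then 42.99, which is on another scale and over other genes than the 21.3 over both replicates with all peaks. The median difference between the replicates was 9.19 percentile points.

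**Figure D1:**
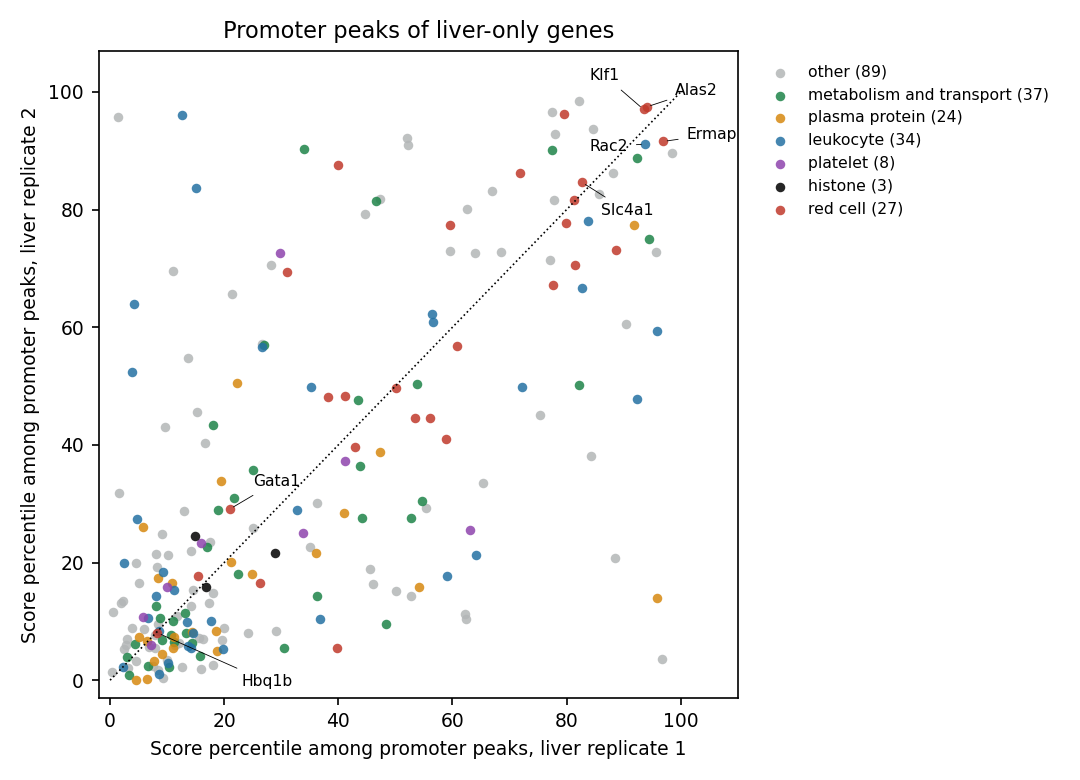
Score percentile of the promoter peak of each of the 222 liver-only genes among all coding promoter peaks of liver replicate 1 (x axis) and liver replicate 2 (y axis), coloured by the role of the gene, with the number of genes in brackets and a dotted line of equality. Many genes lie near the lower left corner, the medians being 21.1 and 21.6, and red-cell genes such as Alas2, Klf1 and Ermap lie near the upper right.

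The members were sorted by the textbook role of their product after their names were known. This gave 27 genes of red cells, 8 of platelets, 34 of leukocytes, 24 of plasma proteins, 37 of metabolism and transport, 3 histones and 89 others. Red-cell genes had the highest median percentiles of these groups, 58.8 in replicate 1 and 67.2 in replicate 2. The medians of the other groups lay between 14.8 and 22.9 in replicate 1 and between 14.9 and 24.2 in replicate 2. The roles were assigned by hand, so these values describe the groups and carry no test.

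Heme and hemoglobin genes gave both very high and very low ranks. Alas2 had scores of 1.23 in replicate 1 and 1.25 in replicate 2, which placed it at the percentiles 94.0 and 97.4, first among all members by the lower of its 2 ranks within the whole list. Its peak spanned chrX:150546701-150550602 in replicate 1 and covered the annotated 5′ end of the gene. It was the only liver-only gene of the 9 listed for heme synthesis, and the other 8, among them Alas1, the form of the same enzyme made in most tissues, had promoter peaks in all 4 libraries. Of 10 globin genes, 4 were liver-only, 2 had another pattern and 4 had no promoter peak in any library. The beta globins Hbb-bt and Hbb-bs ranked low, at 26.2 and 16.6 for Hbb-bt and at 15.3 and 17.7 for Hbb-bs. Hbq1b, a theta globin, ranked at 8.27 and 8.06 and was lost with a window of 250 bp. Hba-a1, an alpha globin, ranked at 60.7 and 56.8, but its peak lay at chr11:32284301-32286002 in both replicates, 490 bp from the nearest annotated start, which belongs to a noncoding transcript of the gene. The call of Hba-a1 was likewise lost with that window, with coding transcripts only and with an overlap of at least 100 bp. Reads from the near-identical alpha and theta globin copies can be placed at either copy, so the peaks at Hba-a1 and Hbq1b are uncertain. Hbb-bt and Hbb-bs, 14100 bp apart, are close copies too, so the split of peaks between these 2 genes is also uncertain.

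Genes listed for the red-cell membrane and blood groups came next. Of 24 listed genes, 9 were liver-only, 14 had promoter peaks in all 4 libraries and 1 had another pattern. All 9 ranked at or above the percentile 39.6 in both replicates. Ermap stood at 96.9 and 91.6. Slc4a1, the anion exchanger band 3, stood at 82.7 and 84.6, and its peak spanned chr11:102362351-102366302 in both replicates. Trim58 and Trim10 are counted in this list, though they are RING finger proteins of erythroblasts and neither membrane nor blood group proteins. They stood at 79.6 and 96.3 and at 71.8 and 86.3. Rhd, Kel, Rhag, the partner glycoprotein of Rh, and Epb42, which links band 3 to the membrane skeleton, stood between 39.6 and 56.1.

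Red-cell transcription factors were fewer. Of 21 listed genes of erythroid transcription and signalling, 3 were liver-only and 15 had promoter peaks in all 4 libraries, among them Tal1, Lmo2, Runx1 and Epor, the erythropoietin receptor. Klf1, the factor that activates the adult beta globin gene, ranked at 93.5 and 97.0. A yolk sac peak lay 623 bp from a start of Klf1, so the call was lost when the window was widened to 1000 bp. Gfi1b, a repressor needed for red cells and platelets, ranked at 58.8 and 41.0. Gata1 ranked at 20.98 and 29.1, and its peak lay at an internal start 10161 bp from the annotated 5′ end, where a coding transcript begins. Other members of the red-cell group were Ackr1, the Duffy antigen, Erfe, the hormone erythroferrone that lowers hepcidin, Car1, Hemgn, Ache and Cldn13.

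**Figure D2:**
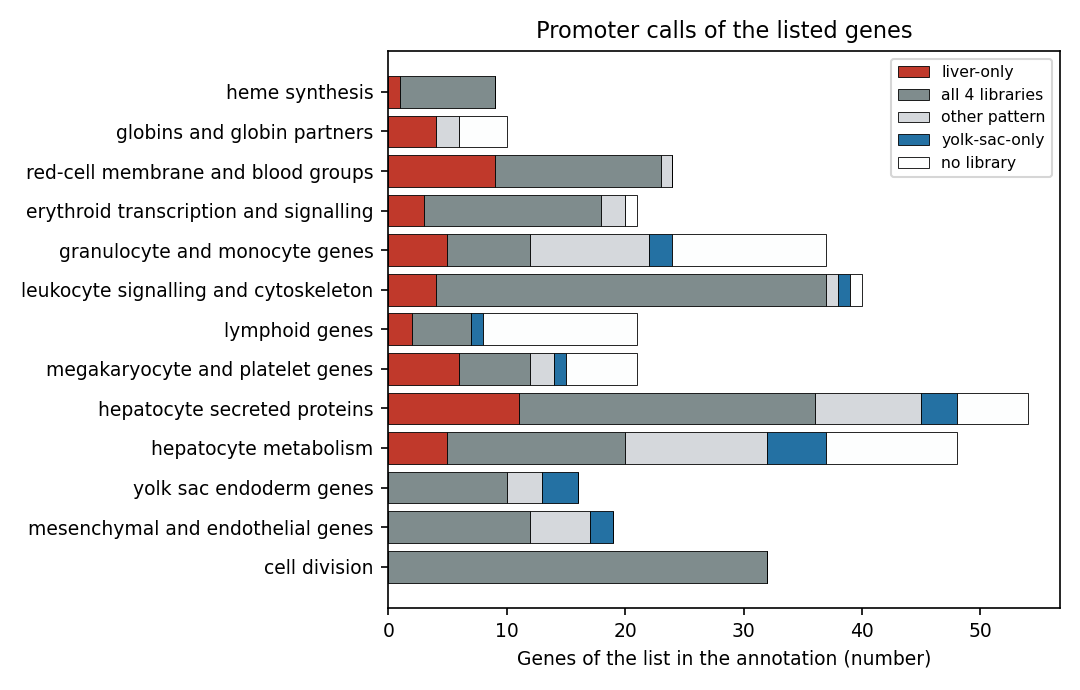
Promoter calls of the genes of 13 functional lists, as the number of genes of each list in the annotation (x axis) split by call pattern (colours). Red segments are liver-only genes. They number 9 of 24 in the list of red-cell membrane and blood groups, Trim10 and Trim58 among them, and 11 of 54 in that of hepatocyte secreted proteins. The 32 genes of cell division were called in all 4 libraries.

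Platelet genes were the next blood lineage. Of 21 listed genes of megakaryocytes and platelets, 6 were liver-only, 6 were called in all 4 libraries, 1 was yolk-sac-only, 2 had another pattern and 6 had no promoter peak. Tubb1, the tubulin of the platelet rim, ranked at 29.9 and 72.7, which is a wide gap between the replicates. Gp1ba, a subunit of the receptor for von Willebrand factor, ranked at 10.1 and 15.9, and Vwf, which encodes that factor, at 41.2 and 37.3. The peak of Vwf lay at an internal start 19477 bp from the annotated 5′ end. A yolk sac peak lay 749 bp from a start of Vwf, and its call was lost with the window of 1000 bp. Treml1 and F2rl2, a receptor of platelet granules and a thrombin receptor, ranked between 5.78 and 23.3.

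Leukocyte genes were liver-only for some products of maturing neutrophils and for single signalling genes. Of 37 listed granulocyte and monocyte genes, 5 were liver-only, 2 yolk-sac-only, 7 called in all 4 libraries, 10 had another pattern and 13 had no promoter peak. The 5 were Camp, Ngp, Ctsg, S100a8 and S100a9, all of which encode proteins of neutrophil granules or cytosol. Camp, the cathelicidin precursor, ranked at 35.2 and 49.8. S100a8 ranked at 2.43 and 20.0 and S100a9, its partner in calprotectin, at 14.1 and 5.49, so both stood low in both replicates. Ngp ranked at 59.0 and 17.7 and Ctsg, cathepsin G, at 8.53 and 1.01. Of 40 listed genes of leukocyte signalling and cytoskeleton, 33 were called in all 4 libraries and 4 were liver-only. These 4 were Rac2, Vav1, Fgr and Cd52. Rac2, a small GTPase of blood cells, ranked at 93.8 and 91.1. The rank of Fgr, a Src-family kinase of myeloid cells, was 4.74 and 27.4, and that of Vav1, an exchange factor for Rac proteins, 64.1 and 21.2. Both Rac2 and Fgr had a yolk sac peak just beyond the window, at 629 and 599 bp, and both were lost with the window of 1000 bp. Of 21 listed lymphoid genes, 2 were liver-only and 13 had no promoter peak. They were Flt3, a receptor kinase of early progenitors, at 3.85 and 52.4, and Blnk, an adaptor of the B cell receptor, at 14.54 and 7.94.

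Plasma proteins of the hepatocyte made up the longest list of named members. Of 54 listed genes, 11 were liver-only, 3 were yolk-sac-only and 25 were called in all 4 libraries, among the last Alb, Ttr, Apoa1 and Fga. A further 9 had another pattern and 6 had none. The 11 were complement and lectin genes (C3, C8a, C8b, Mbl1), coagulation genes (F5, F7, F12, Hrg) and carriers (Hp, Ambp, Serpina6). F5, coagulation factor V, ranked at 91.8 and 77.3, the highest of them. F12 ranked at 47.3 and 38.8, C3 at 22.2 and 50.4 and Mbl1, a mannose-binding lectin, at 36.1 and 21.6. The other 7 stood between 4.90 and 24.9, with Hp, haptoglobin, at 18.8 and 4.90. In all, 24 members were plasma proteins by role, each with its peak at the annotated 5′ end, and their medians were 16.4 and 14.9.

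Metabolic genes showed similar ranks. Of 48 listed genes of hepatocyte metabolism, 5 were liver-only, 5 were yolk-sac-only, 15 were called in all 4 libraries, 12 had another pattern and 11 had no promoter peak. Among the liver-only genes were Cps1, which starts the urea cycle, Mat1a, which makes S-adenosylmethionine in the adult liver, Dpys of pyrimidine breakdown and the cytochrome P450 gene Cyp2d10. Cps1 ranked at 4.36 and 6.15 and Mat1a at 14.3 and 6.32. Dpys stood at 30.5 and 5.55 and Cyp2d10 at 48.3 and 9.63, where the replicates differed widely. Cyp2d10 belongs to a family of close copies, so its peak is uncertain. None of the 16 listed genes of yolk sac endoderm, the 19 of mesenchyme and endothelium or the 32 of cell division was liver-only. The rule called only 1.01% of all coding genes, so the absence of liver-only genes from lists of this size is near that share. The lists together held 50 of the 222 members.

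The 10 members with the highest ranks included 5 that are in none of the lists. They were Gm14862, Slc5a2, a kidney sodium and glucose transporter, Nxpe4, Casq2, a calcium store protein of heart muscle, and Mmel1, a metallopeptidase. Gm14862 ranked at 98.4 and 89.6 and Slc5a2 at 92.2 and 88.8. Nxpe4, Casq2 and Mmel1 ranked between 82.6 and 93.6. For 4 of these 5 the peak lay at an internal start, 4917 bp from the annotated 5′ end in Slc5a2, 12624 bp in Mmel1, 57636 bp in Casq2 and 200018 bp in Nxpe4. In Slc5a2 and Casq2 this start belonged to a transcript that is not protein-coding. The peak of such a gene marks initiation within the gene and does not show transcription of its coding transcript.

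Across all members, the peak came within 500 bp of the annotated 5′ end in both liver lists in 172 of 222 genes (77.5%) and did not do so in at least 1 of the lists in 50 (22.5%). It came as close to the start of a coding transcript in 209 genes (94.1%) and only starts of other transcripts in 13. The peak also lay at the start of another coding gene in 5 cases, which were Apof beside Stat2, Astl beside Dusp2, Ddx25 beside Pus3, Hist1h3d beside 2 other histone genes and Nhlrc4 beside Pigq. In these 5 the peak cannot be given to 1 gene. A noncoding gene started at the peak in 14 cases. Members also lay near each other on the chromosome, with 19 neighbouring pairs within 100 kb that involved 36 genes, and 0 of these pairs shared a peak. Among the pairs were Hbb-bt with Hbb-bs, S100a8 with S100a9, Car1 with Car3, Gstm6 with Gstm3, Tnfsf14 with C3, and C3 with Vav1.

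The yolk sac lists often held a peak close to a liver-only gene. The nearest yolk sac peak lay at a median of 11084.5 bp from a start of the gene, with a range of 523 to 1456001 bp. It lay within 1000 bp for 17 genes, at up to 5 kb for a further 55, at up to 20 kb for 66, at up to 100 kb for 58 and beyond that for 26. The 5 members closest to the limit were Ddx25 at 523 bp, Lcat at 530, Hc at 536, Fgr at 599 and Tspan32 at 607. Genes that failed the rule by a small margin were Rec114 at 490 bp, Rgn at 435, Treml2 at 415 and Atp4a at 380. Genes on the 2 sides of the limit thus lay close to each other. Rec114, Treml2 and Atp4a failed through 1 yolk sac library each, since the other had its nearest peak at 36282, 90915 and 5257 bp. Hbb-bt and Hbb-bs lay at the far end, with the nearest yolk sac peak at 404355 and 390255 bp.

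**Figure D3:**
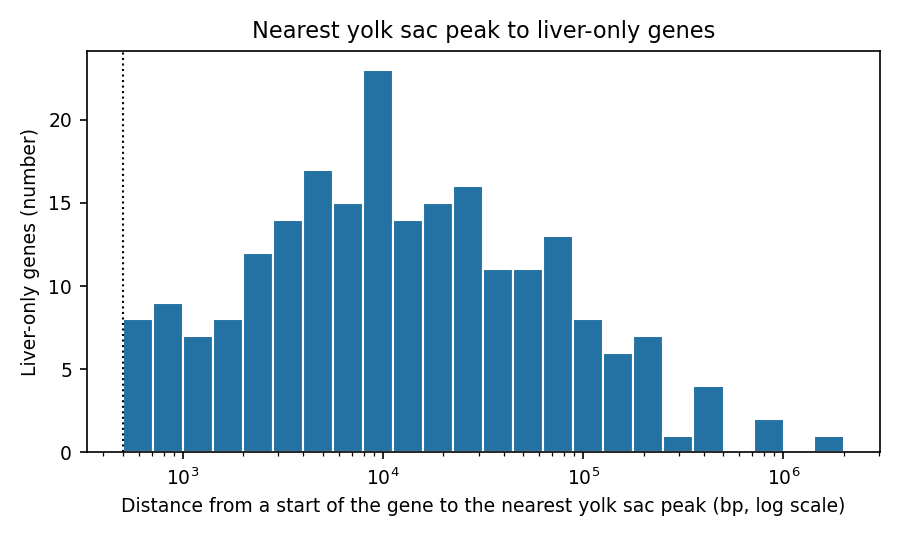
Number of liver-only genes (y axis) by the distance from a start of the gene to the nearest peak of either yolk sac list, on a log scale in bp (x axis), with the 500 bp limit of the rule as a dotted line. The distances run from 523 to 1456001 bp around a median of 11084.5 bp.

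The rule did not use distal peaks as such, and these were compared between the tissues. The comparison is not independent of the rule, which bars a yolk sac peak from the window of every start of a member. A yolk sac peak just beyond the window counts as distal, even where it overlaps a liver peak that reaches the window and counts as promoter. A distal peak overlaps the 500 bp window of no annotated start of any gene, and it was given to the coding gene with the nearest start within 50 kb of its midpoint. The 222 liver-only genes held 159 distal peaks in liver replicate 1, 148 in liver replicate 2, 159 in yolk sac replicate 1 and 124 in yolk sac replicate 2. This is 0.716 and 0.667 per gene in the liver libraries and 0.716 and 0.559 in the yolk sac libraries. The 2 tissues overlapped, the liver mean being 0.691 ± 0.0350 and the yolk sac mean 0.637 ± 0.111 (SD, n = 2 each), which gives a log2 ratio of 0.12. The exact two-sided permutation test gave p = 1, and the smallest value that 2 against 2 libraries allow is 0.33. Several alternatives turned the sign of this ratio, among them distal peaks over 5 kb from the start only (-0.17). Others were the higher-scoring 50% of each list (-0.40) and the omission of liver replicate 1 (-0.15) or yolk sac replicate 2 (-0.020). The ratio was 0.82 with equally long lists and 0.44 for the members whose peak lay at the 5′ end (exact permutation p = 0.33 for each).

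Other genes had far more distal peaks in yolk sac than in liver. Genes with a promoter peak in all 4 libraries had 0.698 and 0.623 distal peaks per gene in the liver libraries but 1.71 and 1.40 in the yolk sac libraries, a log2 ratio of -1.23 (exact permutation p = 0.33). Yolk-sac-only genes had 0.291 and 0.284 in liver against 1.48 and 1.22 in yolk sac, a log2 ratio of -2.23. The longer yolk sac lists enter these values, so the number per liver-only gene was divided by that per gene called in all 4 libraries, library by library. The quotient was 1.03 and 1.07 for the liver libraries and 0.419 and 0.399 for those of yolk sac. The tissues did not overlap, and the liver mean of 1.05 ± 0.0303 was 2.56-fold the yolk sac mean of 0.409 ± 0.0143 (SD, n = 2 each). The log2 ratio was 1.36, and the exact permutation p was 0.33, the smallest the design allows. It was above 0 under every alternative run, but it fell to 0.63 with equally long lists and to 0.84 when a distal peak counted for every gene in reach.

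**Figure D4:**
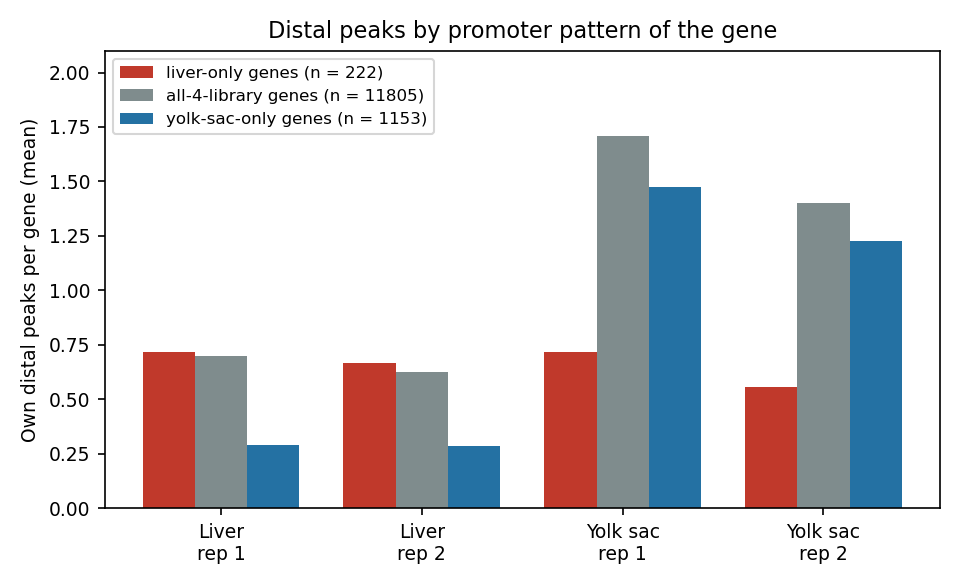
Mean number of own distal peaks per gene (y axis) in each of the 4 libraries (x axis) for liver-only genes, genes with a promoter peak in all 4 libraries and yolk-sac-only genes, each bar being 1 library. Liver-only genes stay between 0.559 and 0.716 in all libraries, while the other groups are higher in both yolk sac libraries than in both liver libraries.

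Peaks that overlapped between libraries were merged into regions, and merged regions that overlapped the window of any annotated start were left out. Liver-only genes had 303 own distal regions in 134 genes (60.4%), and 88 genes had none. Of the regions, 79 were liver-only, being found by both liver libraries alone, 72 had the reverse pattern, 27 were called in all 4 and 125 had another pattern. The liver-only regions belonged to 61 of the 222 genes (27.5%, 95% Wilson interval 22.0% to 33.7%, counting error only), against 9.47% of all coding genes. Among genes called in all 4 libraries the share was 13.8%, and among yolk-sac-only genes 5.38%. Yolk-sac-only regions belonged to 42 liver-only genes (18.9%), against 28.4% of all coding genes and 37.6% of genes called in all 4 libraries. Liver-only genes thus stood above the background for liver-only regions and below it for yolk-sac-only regions. Both kinds of region occurred at 17 genes. With the higher-scoring 50% of each list, where 289 genes met the rule, the share with a liver-only region was 10.7%. No share over all coding genes is given for that setting, so this value cannot be set against the shares above.

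Liver-only and yolk-sac-only distal regions of these genes had similar shares in each position. Of the 79 liver-only regions, 38 lay within the gene (48.1%), 29 upstream and 12 downstream, at a median of 6625 bp from the nearest start. Of the 72 yolk-sac-only regions, 34 lay within the gene (47.2%), 27 upstream and 11 downstream, at a median of 10270.5 bp. Most genes with such a region had a single one, 49 of 61, while 7 had 2 regions, 4 had 3 and 1 had 4. Pon1, which encodes the serum paraoxonase carried on HDL, had the 4, at 4237 and 7437 bp within the gene, 28605 bp upstream and 37787 bp downstream. Slc4a1 had 3, at 2348 bp upstream, 4717 bp within the gene and 12692 bp downstream, and none of the yolk-sac-only kind. Kcnn4, the Gardos potassium channel of red cells, also had 3, at 1047, 2712 and 4944 bp. Aqp9, a glycerol channel of hepatocytes, had 3 within the gene, and the one at chr9:71156051-71159602 ranked at the percentiles 97.3 and 82.4 among all peaks of the liver lists. Fcnb, ficolin B of myeloid cells, had 3, at 16091 bp upstream and at 16409 and 20284 bp downstream.

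Red-cell genes held more distal peaks in both liver libraries than in either yolk sac library. The 27 genes held 31 and 31 distal peaks in the liver libraries and 8 and 8 in the yolk sac libraries. This is 1.15 per gene in each liver library and 0.296 in each yolk sac library. The peaks were unevenly spread. Slc4a1 held 5 and 5 in liver and 1 and 0 in yolk sac, and Kcnn4 held 5 and 3 against 1 and 1. A liver-only region belonged to 13 of the 27 (48.1%). Alas2 had 1, at chrX:150516001-150517102, 30824 bp upstream. Hbb-bt and Hbb-bs had 1 each, 2995 and 2074 bp from the start on the downstream side. Kel had 1 at 2387 bp upstream and Rhd 1 at 4265 bp within the gene. Gata1 had 1 at 3516 bp, within the annotated gene but upstream of the internal start at its promoter peak. Gata1 also had an all-4-library region 15080 bp upstream. Epb42 had 2 upstream, at 17354 and 19029 bp, and the farther one ranked at the percentiles 95.9 and 78.9 among all peaks. Gfi1b had 2, at 1996 bp within the gene and 13179 bp downstream. Klf1 had no distal peak in the liver lists and 1 in each yolk sac list.

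Genes of the red-cell lists that were called in all 4 libraries are set beside these. The 14 genes of that kind in the red-cell membrane and blood group list held 31 and 33 liver distal peaks and 37 and 28 yolk sac ones. The 9 liver-only genes held 10 and 13 in liver and 2 and 1 in yolk sac. A liver-only region belonged to 7 of the 14 and to 4 of the 9, so it was not particular to the liver-only genes. The 4 liver-only globin genes held 4 in each liver library and 0 in each yolk sac library. No listed globin gene was called in all 4 libraries. For erythroid transcription and signalling the 3 liver-only genes held 4 and 4 in liver against 3 and 4 in yolk sac. The 15 genes called in all 4 libraries held 44 and 43 against 52 and 36. A liver-only region belonged to 2 of these 3 genes and to 9 of these 15. These differences were not tested, because the genes of a list are few and were picked for their function with earlier results of these data known.

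In the other role groups the libraries of the 2 tissues overlapped or had a count in common. The 34 leukocyte genes held 29 and 29 liver distal peaks and 33 and 26 yolk sac ones, the 24 plasma protein genes 17 and 20 against 22 and 15. The 37 genes of metabolism and transport held 21 and 18 against 18 and 15. A liver-only region nevertheless belonged to 10 of the 34 leukocyte genes, 7 of the 24 plasma protein genes and 8 of the 37 metabolic genes. Ubash3a, a regulator of T cell receptor signalling, had 2, both within the gene. The 8 platelet genes held 10 and 11 against 11 and 9, and 5 of them had a liver-only region. Vwf shaped the yolk sac count, with 8 and 7 of those peaks and 4 yolk-sac-only regions beside 2 liver-only ones. F2rl2 had 2 liver-only regions, 17177 and 25327 bp upstream. The 89 genes of other roles held 49 and 38 against 65 and 49.

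**Figure D5:**
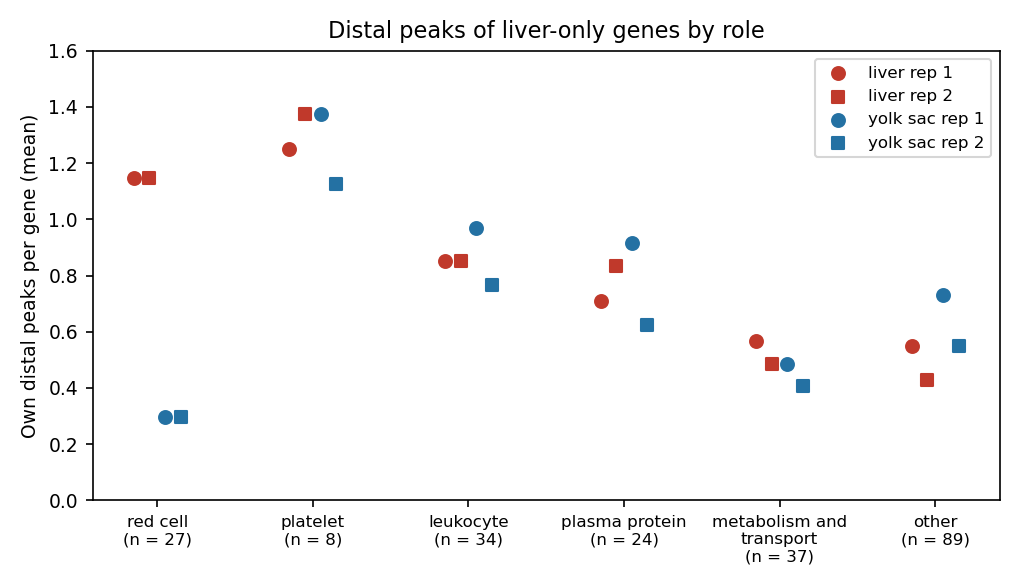
Mean number of own distal peaks per liver-only gene (y axis) by role of the gene (x axis, with the number of genes), each point being 1 library, red for liver and blue for yolk sac. Red-cell genes stand at 1.15 in both liver libraries and 0.296 in both yolk sac libraries, and the points of the 2 tissues lie close together or overlap in the other groups.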

How the data were processed

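The authors deposited 1 peak list per library, with the position and score of each peak. The word dREG, a classifier of initiation regions in run-on data, comes from the names of the lists. The submitters' processing notes name Bowtie2, bedtools and mm10, without versions or roles. Other steps and filters are not given in the sources used here. The deposited score has no unit, was left unscaled and used for ranks and filters inside each list. Depth is unknown, and the number of libraries limits the precision.

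Peaks were made 1-based and set against GENCODE vM21 transcript starts in Python 3.11.15 (pandas 2.3.3, numpy 2.4.6, scipy 1.17.1). An overlap of 1 bp sufficed. Tissues were compared by exact two-sided permutation over the 6 assignments of 4 libraries. Nothing in the labels says that equal replicate numbers share embryos, and with 2 libraries per tissue p-values measure only the spread between these pools. On simulated lists, 200 of 200 genes were returned with their planted pattern and 200 of 200 with their distal peaks. The members and gene lists were chosen with earlier results of these data known. Named with values are members in a list, the 10 highest ranks, the 10 with most liver-only distal regions and the 5 genes on each side of the limit. Some genes that meet this rule are not reported here.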

Additional observations from a re-analysis of the deposited data

How the results depend on the processing

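The alternatives changed 1 choice at a time, and of 85 recomputed values 52 stayed within the replicate spread or 1.5 times the count, 27 moved and 6 reversed. Read depth is unknown, and the number of peaks per list limits all calls of absence. The number of liver-only genes was 660 when each list was shortened to the same length and 238 to 292 when a library was left out. Of the 222 genes, 67 (30.2%) were also called with the higher-scoring 50% of each list.

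The log2 ratio of distal peaks per liver-only gene, 0.12 as reported, reversed to -0.071 within 100 kb, -0.24 with every gene in reach, -0.40 with the higher-scoring 50% and -0.17 with distal peaks over 5 kb away, and ranged from -0.15 to 0.14 when a library was left out. It was 0.82 with equal list lengths and 0.44 for members with a peak at the 5′ end. The ratio relative to genes called in all 4 libraries, 1.36 as reported, was 1.22 within 100 kb, 0.84 with every gene in reach, 1.05 with the higher-scoring 50%, 0.63 with equal lengths, 1.46 and 1.25 with windows of 1000 and 250 bp, 1.21 over 5 kb, 1.68 for members at the 5′ end and 1.17 to 1.35 without a library. The choices of peaks over 5 kb and of members at the 5′ end were added after seeing the data. The replicate block gave 0.13 and 1.36 for these ratios (exact permutation p = 1 and 0.5, the smallest that pairs allow being 0.5) and changed no call.

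The median score percentile, 21.3, was 22.9 and 20.99 with windows of 1000 and 250 bp, 18.8 with coding transcripts only and 14.7 to 22.1 without a library. It was 42.99 with the higher-scoring 50% and 22.6 with equal lengths, where ranks were taken within the shortened lists. The share of genes with a liver-only distal region was 42.8% with every gene in reach, 10.7% with the higher-scoring 50% and 24.7% to 33.7% without a library. The share with a yolk sac peak within 5 kb, 32.4%, was 25.95% and 26.5% with the higher-scoring 50% and with equal lengths. The share at a coding start was 100% with coding transcripts only, by construction. The cause of the other changes was not tested.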
